A study of Mus musculus with 7 samples.

Results

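The regions described here were open chromatin peaks found in every library of cells given a BET inhibitor and in no library of cells without it. Peaks from all 7 libraries that overlapped or touched were joined into 344401 regions, and a region was kept when both RANKL+Ibet libraries and the Ibet only library had at least 1 bp of a peak in it and neither RANKL library nor either Untreated library did. This rule kept 489 regions, 0.142% of all regions. The regions were thus chosen by the peak calls of all 7 libraries, and those calls are a description, with no test.

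The assay was ATAC-seq, which reads where a transposase can insert adapters into accessible DNA. The cells were RAW264.7, a macrophage-like mouse line that forms osteoclasts when given RANKL. RANKL+Ibet cells (2 libraries) had RANKL at 50 ng/ml and I-BET at 500 nM for 4 h, Ibet only cells (1 library, labelled replicate 2) had I-BET at 500 nM for 4 h, RANKL cells (2 libraries) had RANKL at 50 ng/ml for 4 h, and Untreated cells (2 libraries) had neither agent. The labels do not say which I-BET compound was used, nor whether replicates were separate cultures, so their spread may be technical. All libraries came from 1 cell line. The genes that mark macrophages, Spi1, Csf1r, Cd68, Adgre1 and Lyz2, had a peak within 1 kb of an end in all 7 libraries (5 of 5 genes). Of 12 marker genes each, 3 of B lymphocytes, 6 of T lymphocytes, 2 of fibroblasts and osteoblasts, and 5 of granulocytes and erythroid cells also had one in all 7, so a peak alone does not name a cell type. In a bulk profile, more cells open at a region and a more open region in each cell cannot be told apart.

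BET proteins (Brd2 and Brd3 among them) hold acetylated histones through their bromodomains and bring the elongation machinery to promoters and enhancers. I-BET compounds fill the acetyl-lysine pocket of the bromodomains and release the proteins from chromatin. RANKL binds its receptor RANK and starts osteoclast development through NF-kB, AP-1 and Nfatc1.

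The libraries differed in depth, which the peak lists do not give as read counts. The background pileup implied by the deposited folds, the mean number of overlapping reads per position that the peak caller took as background, was 3.92 and 13.8 in RANKL+Ibet replicates 1 and 2 and 1.11 in Ibet only, against 4.12 and 2.04 in RANKL replicates 1 and 2 and 2.55 and 1.81 in Untreated replicates 1 and 2. By this measure Ibet only was the shallowest library and RANKL+Ibet replicate 2 the deepest. Untreated replicate 1 stood apart in another way, as 42.9% of the regions it called were called in no other library, against 8.95% to 27.1% in the other 6. The part of depth in the results below was not tested.

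Of the 489 regions, 13 overlapped a promoter window of RefSeq, the stretch of 300 bases around a gene's start (8 of protein-coding genes and 5 of long noncoding RNAs). Overlaps with a window were not counted over all regions, so the 13 have no background share here. In 4 of them the window lay wholly inside the region, and these are shown because the whole core promoter falls in chromatin that was called only with I-BET. They are the promoters of Amz1, a metalloprotease gene, at chr5:140723877-140724176 on the plus strand; Aoc1, which encodes diamine oxidase, at chr6:48904736-48905035 on the plus strand; Gprin3, a gene of a G protein-binding protein, at chr6:59426257-59426556 on the minus strand; and the noncoding RNA gene Gm38976 at chr7:28148453-28148752 on the minus strand (RefSeq, GRCm38.p6, whose chromosome coordinates are those of mm10). Capitals mark matches to the 12 motifs listed after the sequences, read 5′ to 3′ along the gene's strand.
Amz1: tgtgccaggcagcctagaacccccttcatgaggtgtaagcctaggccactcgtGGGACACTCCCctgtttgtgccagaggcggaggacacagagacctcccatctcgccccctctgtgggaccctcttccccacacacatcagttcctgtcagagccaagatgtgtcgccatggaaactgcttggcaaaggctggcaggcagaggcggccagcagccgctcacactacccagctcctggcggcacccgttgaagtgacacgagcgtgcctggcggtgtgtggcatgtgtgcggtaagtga
Aoc1: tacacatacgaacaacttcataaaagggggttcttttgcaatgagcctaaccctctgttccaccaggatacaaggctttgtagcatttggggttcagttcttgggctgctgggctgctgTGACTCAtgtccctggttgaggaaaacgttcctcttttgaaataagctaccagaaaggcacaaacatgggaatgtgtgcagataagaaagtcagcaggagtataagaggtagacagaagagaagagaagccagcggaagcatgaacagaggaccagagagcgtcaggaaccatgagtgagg
Gprin3: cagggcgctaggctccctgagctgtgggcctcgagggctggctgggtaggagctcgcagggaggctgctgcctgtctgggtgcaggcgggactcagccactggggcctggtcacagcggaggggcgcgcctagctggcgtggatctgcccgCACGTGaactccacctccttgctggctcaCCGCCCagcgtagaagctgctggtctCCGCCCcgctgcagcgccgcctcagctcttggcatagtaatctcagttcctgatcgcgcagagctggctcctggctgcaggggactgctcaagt
Gm38976: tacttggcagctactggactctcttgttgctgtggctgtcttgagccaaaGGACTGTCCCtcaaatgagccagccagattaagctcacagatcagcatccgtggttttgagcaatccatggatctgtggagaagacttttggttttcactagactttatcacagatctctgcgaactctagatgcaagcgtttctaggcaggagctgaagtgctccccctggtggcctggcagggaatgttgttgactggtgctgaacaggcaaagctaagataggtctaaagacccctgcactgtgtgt

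The Amz1 window held overlapping matches to an NF-kB motif on both strands, the Aoc1 window an AP-1 motif, the Gprin3 window an E-box with a pair of SP/KLF motifs, and the Gm38976 window an NF-kB motif. Both strands were searched. Whole windows were searched, though only 4 of the 13 lay wholly inside a region. In the others the overlap with the region was as small as 35 bases, so some of the matches counted below lie outside the regions. Over the 13 windows SP/KLF (GGGCGG) was matched in 8, NF-kB (GGGA and CC with any 4 bases between them) in 4, AP-1 (TGANTCA) in 2, Runx (TGTGGTT) in 2, the E-box (CACGTG) in 1 and the IRF motif (GAAA repeated after any 2 bases) in 1. Over all 32817 windows these motifs were found in 35.6%, 20.7%, 7.81%, 5.27%, 7.15% and 3.43%, in the same order. The letters of CRE (TGACGTCA), ETS/PU.1 (GAGGAAGT), C/EBP (TTGCGCAA), NFY (CCAAT) and of the longer NRF1 and YY1 motifs were in none of the 13, against 1.79%, 3.20%, 0.183%, 37.4%, 0.966% and 0.847% of all windows. With 13 windows these counts are a description, and a match is not a bound site.

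The peaks in the regions of these promoters were of unequal strength. The authors' -log10 q, the peak caller's measure of how unlikely a peak is after correction over its own list, was 2.93, 4.31 and 3.56 at Amz1 in RANKL+Ibet replicates 1 and 2 and Ibet only. At Aoc1 it was 1.35, 21.5 and 1.90 in the same libraries. At Gprin3 it was 5.46, 1.81 and 1.90, and at Gm38976 3.52, 15.7 and 1.17. No RANKL or Untreated library had a peak there, so the lists hold no value for them. Ranks within a list are percentiles by -log10 p, highest for the strongest peak, and peaks of equal value share their mean rank. The share of peaks that lie strictly below is therefore smaller than the rank. The Aoc1 peak had a rank of 57.7% in RANKL+Ibet replicate 2 but 7.43% in RANKL+Ibet replicate 1. The Gprin3 peak had 3.32% and 53.4% in the same lists.

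Another region of the 489, at chr19:7422229-7422839, covered the hairpin of the microRNA gene Mir6991, whose mature strands are shown with their seeds (bases 2 to 8) in capitals (RefSeq, GRCm38.p6).
mmu-miR-6991-5p: uGGAGAACagggacugggccug
mmu-miR-6991-3p: gCAGCCCUuuguucuucuccag
The -log10 q of this region was 5.46 and 6.02 in RANKL+Ibet replicates 1 and 2 and 1.90 in Ibet only. It lay inside the protein-coding gene 2700081O15Rik, so the peak cannot be assigned to the microRNA.

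The 489 regions were few beside their neighbours in pattern. Regions called in both RANKL+Ibet libraries and in no other library numbered 2189 (0.636% of all regions), those in RANKL+Ibet replicate 2 and Ibet only 3437, and those in RANKL+Ibet replicate 1 and Ibet only 770. Just outside the rule on the other side, regions of all 3 I-BET libraries that also had a peak in 1 other library numbered 687 with RANKL replicate 1, 446 with RANKL replicate 2, 305 with Untreated replicate 2 and 156 with Untreated replicate 1. The median -log10 q of that additional peak was 3.89, 3.22, 3.66 and 2.10 in the same order. The reverse pattern, in all 4 libraries without I-BET and none with it, held 26 regions (0.00755%), but it asks for 4 calls in place of 3. Patterns of exactly 3 of those 4 libraries held 80 to 154 regions. A further 539 regions were called in all 4 libraries without I-BET and in RANKL+Ibet replicate 2 alone among the I-BET libraries, against 7 with Ibet only and 5 with RANKL+Ibet replicate 1.

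**Figure D1:**
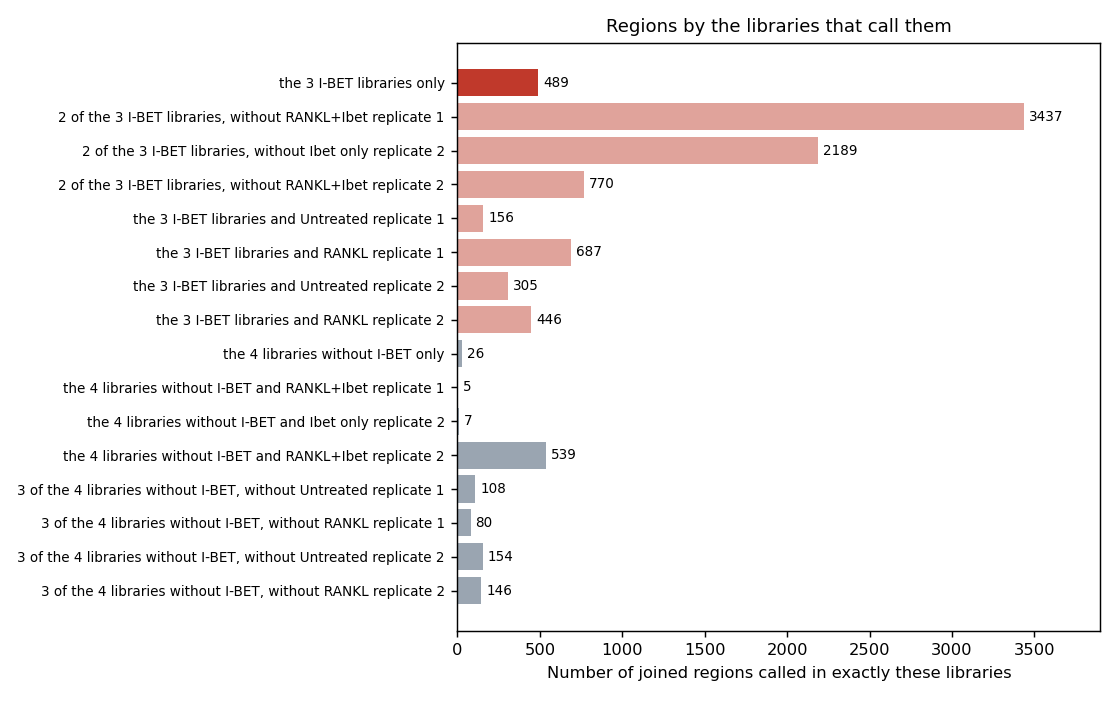
Number of joined regions (horizontal axis) called in exactly the libraries named on the vertical axis. The dark bar is the 489 regions called in every I-BET library only, light red bars are patterns that differ from it by 1 library, and grey bars are the 26 regions of the reverse pattern and its neighbours, of which the 539 regions with RANKL+Ibet replicate 2 are the longest bar.

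The number depended on which libraries were asked for. Without Untreated replicate 1, the library that stood apart, the same rule kept 646 regions, and without Untreated replicate 2 it kept 795. Without RANKL replicate 1 it kept 1190 and without RANKL replicate 2 it kept 949. Without RANKL+Ibet replicate 1 it kept 3930, without RANKL+Ibet replicate 2 it kept 1322 and without Ibet only, when RANKL+Ibet alone stands for the inhibitor, it kept 2687. Every number is larger than 489 because fewer libraries had to meet the rule. With peaks of a -log10 q of at least 2 in all lists the rule kept 230 regions, with at least 5 it kept 57, and with lists cut to equal length 276. These settings also took weak peaks out of RANKL and Untreated lists, so the regions kept need not be among the 489. Of the 489 themselves, 149 and 2 had a -log10 q of at least 2 and 5 in all 3 I-BET libraries.

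The share of regions that Ibet only also called was described for regions of the other libraries. For RANKL+Ibet the regions it called are the 489 themselves, so this share restates the rule's calls and is no test. Of 2678 regions (0.778% of all regions) called in both RANKL+Ibet libraries and no library without I-BET, Ibet only called 489, or 18.3% (Clopper-Pearson 95% interval 16.8% to 19.8%, counting error only). Of 1056 regions called in both RANKL libraries and in no RANKL+Ibet or Untreated library it called 9.56% (7.86% to 11.5%), and of 883 regions called in both Untreated libraries and in no RANKL+Ibet or RANKL library 9.51% (7.66% to 11.6%). These regions had median lengths of 406, 355 and 347 bp in that order, and a longer region offers more room for a call. Of 3213 regions called in all 4 RANKL+Ibet and RANKL libraries and in no Untreated library it called 43.3%, and these were longer, with a median of 548 bp. Of the regions of RANKL+Ibet replicate 2 alone among the 6 libraries, Ibet only called 10.5%, and of those of RANKL+Ibet replicate 1 alone 3.81%. With lists of equal length the shares for RANKL+Ibet, RANKL and Untreated were 21.8%, 11.6% and 9.98%. At a -log10 q of at least 2 they were 10.1%, 4.71% and 4.27%, and at 5 they were 4.87%, 0% and 0%. The share for RANKL+Ibet was the highest of the 3 in each of these settings. Leaving out RANKL+Ibet replicate 2 turned the order round, since the share was then 5.46% for RANKL+Ibet, 25% for RANKL and 17.0% for Untreated. Without RANKL+Ibet replicate 1 the shares were 11% for RANKL+Ibet, 11.2% for RANKL and 10.1% for Untreated, so the order did not hold without either RANKL+Ibet library. These settings are not like for like. RANKL+Ibet regions then needed 1 library and the other sets 2, and those sets no longer excluded regions of the library left out. The RANKL share was likewise 5.26% and 4.15% without RANKL replicate 1 or 2. The Untreated share was 5.81% and 3.09% without Untreated replicate 1 or 2. With 1 Ibet only library there is no replicate of these shares.

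The peaks that make up the 489 regions were weak in every I-BET library. By -log10 p within its own list, with ties at their mean rank, the median peak had a rank of 25.8% in RANKL+Ibet replicate 1. The median rank was 31.6% in RANKL+Ibet replicate 2 and 30.7% in Ibet only. In the 43170 regions called in all 7 libraries (12.5% of all regions) these ranks were 81.6%, 86.4% and 83.4%. The median -log10 q of the 489 was 2.37 (range 0.509 to 16.8) in RANKL+Ibet replicate 1, 6.02 (1.22 to 31.6) in RANKL+Ibet replicate 2 and 1.90 (0.531 to 15.5) in Ibet only. A -log10 q of at least 2 was reached in all 3 libraries by 149 of the 489 (30.5%), in 2 by 228, in 1 by 104 and in none by 8. A value of at least 5 was reached in all 3 by 2 regions, in 2 by 40, in 1 by 264 and in none by 183.

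In reads, the signal was small. The deposited fold is the summit's pileup over the background, each with 1 added, and all folds in the lists were whole multiples of 1 step per library (within 0.02), so the pileup can be read back. Its median over the 489 was 13 overlapping reads (quartiles 12 to 15) in RANKL+Ibet replicate 1, 38 (32 to 45) in RANKL+Ibet replicate 2 and 6 (5 to 7) in Ibet only. Regions of both RANKL+Ibet libraries alone had medians of 13 and 34 in replicates 1 and 2. Regions called in all 7 libraries had medians of 50, 256 and 22 in RANKL+Ibet replicates 1 and 2 and Ibet only. The lowest pileup that made a call in the 489 was 9, 25 and 4 in these libraries. A pileup just under the caller's limit in a library without I-BET leaves no line in its list, so how far below the RANKL and Untreated libraries lay was not measured.

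**Figure D2:**
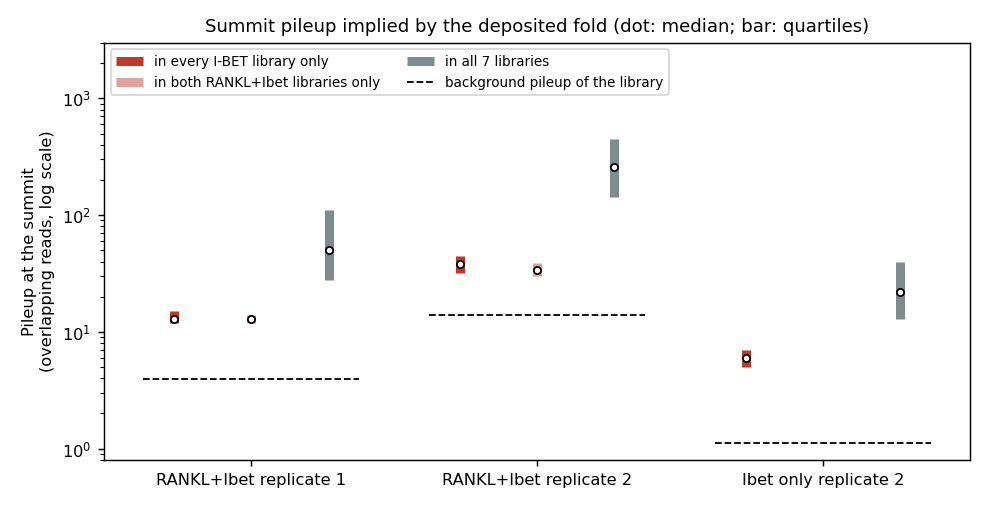
Pileup at the summit (vertical axis, overlapping reads, log scale) in the 3 I-BET libraries (horizontal axis) for the 489 regions (dark red), for regions called in both RANKL+Ibet libraries only (light red) and for regions called in all 7 libraries (grey). Dots are medians, bars span the quartiles, and the dashed lines are the background pileups of 3.92, 13.8 and 1.11.

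The strongest regions, ranked by the lowest of their 3 within-list ranks, were led by one at chr2:155515962-155516441, 1071 bp from Ggt7, a gene of the gamma-glutamyltransferase family. Its -log10 q was 8.35 and 31.6 in RANKL+Ibet replicates 1 and 2 and 3.56 in Ibet only. The next, at chr15:51911721-51912169, lay 27099 bp from Utp23, whose product helps to process ribosomal RNA, with 9.91, 17.6 and 3.56. In all 3 lists both regions ranked above the middle. The Ggt7 peak had ranks of 62.0%, 63.7% and 55.3% and the Utp23 peak 65.0%, 54.2% and 55.3% in RANKL+Ibet replicates 1 and 2 and Ibet only.

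The third, at chr10:123146127-123146771 inside Usp15, a deubiquitinase gene, had 16.8, 16.3 and 15.5, with pileups of 32, 57 and 19 and ranks of 73.0%, 52.9% and 80.8% in the 3 lists. It was 1 of the 2 regions with a -log10 q of at least 5 in all 3 libraries. The other lay at chr8:95025444-95025898 inside Adgrg3, an adhesion G protein-coupled receptor gene, with 5.46, 6.48 and 5.42 (chosen after its values were seen).

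The remaining 7 of the 10 strongest had a -log10 q of 4.14 to 5.46 in RANKL+Ibet replicate 1, 11.6 to 26.4 in RANKL+Ibet replicate 2 and 3.56 to 5.42 in Ibet only. They lay inside Cert1, which encodes a ceramide transfer protein, 1281 bp from Papss2, which makes the sulfate donor for proteoglycans, inside Specc1, inside Memo1, inside Camk1d, a calmodulin-dependent kinase gene, 23858 bp from Bcas2, a spliceosome gene, and, on chromosome 13, 108305 bp from the nearest protein-coding gene. Of these 7 only the last exceeded 5 in Ibet only.

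**Figure D3:**
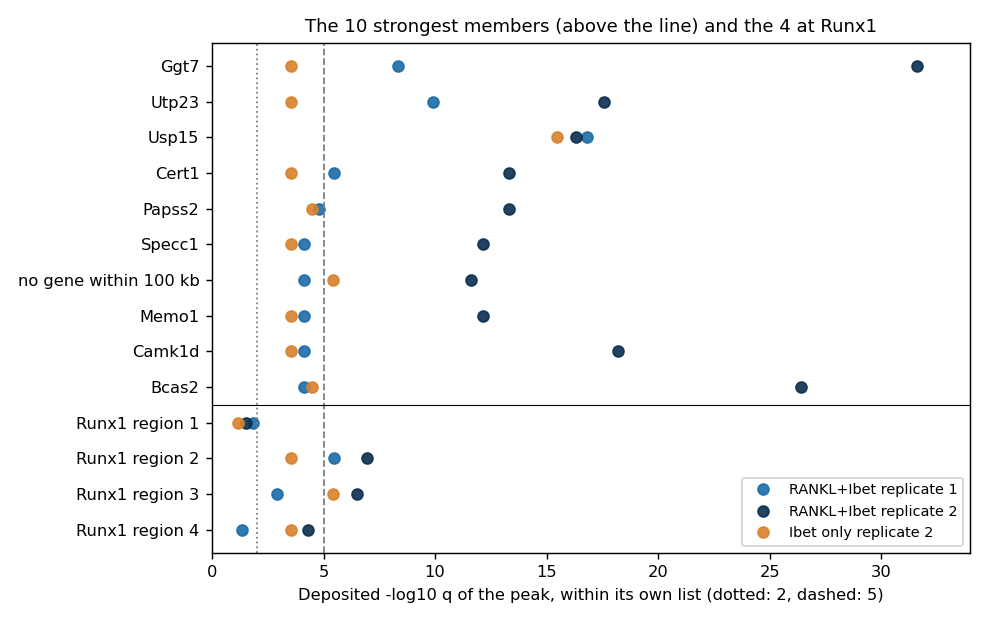
Deposited -log10 q (horizontal axis) of the peaks of RANKL+Ibet replicates 1 and 2 and Ibet only replicate 2 at the 10 strongest of the 489 regions, above the line, and at the 4 regions at Runx1, below it. Values compare regions within 1 library's list and not libraries with each other, and Usp15 is the 1 region shown with all 3 points above 15.

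Assigned to the nearest protein-coding gene within 100 kb, 466 regions fell to 455 genes, and 23 regions had none. Of the 455 genes, 447 had 1 region and 8 had more. Of the 455 genes, 407 (89.5%) also held a region called in all 7 libraries, and 93 (20.4%) held a region called in both RANKL+Ibet libraries only. These shares were not counted over all 19096 genes with a region, so they have no background here. The regions were spread out, with a median of 2679 kb between neighbours on a chromosome and 11 of 469 neighbouring pairs within 100 kb.

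Runx1, a transcription factor gene of the blood lineages, had the most, with 4 of its 136 regions, beside 26 called in all 7 libraries. All 4 lay inside the gene. The one at chr16:92699808-92700368, 102 bp from a region open in all 7 libraries, had a -log10 q of 5.46 and 6.95 in RANKL+Ibet replicates 1 and 2 and 3.56 in Ibet only. The one at chr16:92726684-92727389 had 2.93, 6.48 and 5.42.

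The Runx1 regions at chr16:92763674-92764094 and chr16:92641050-92641476 were weaker, with 1.35, 4.31 and 3.56 at the first and 1.85, 1.51 and 1.17 at the other. The number of regions at Runx1 was 4 to 6 when 1 library was left out, but 2 at a -log10 q of at least 2, with lists of equal length or with 50% of the region covered, 1 with summits within 100 bp and 0 at a -log10 q of at least 5.

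Camk1d had 3 of 114 regions, all inside the gene. The pairs at the other 6 genes were at Cbx1, which encodes the heterochromatin protein HP1 beta, Stim1, a calcium sensor of the endoplasmic reticulum, Lpar3, a lysophosphatidic acid receptor gene, Dym, a Golgi protein gene, Rbfox3, a splicing factor gene best known from neurons, and Kcnh1, a potassium channel gene. At Cbx1 the region inside the gene, chr11:96790647-96791174, had a -log10 q of 2.37, 16.9 and 2.70 in RANKL+Ibet replicates 1 and 2 and Ibet only, and the one outside had 1.35, 3.16 and 1.90. At Stim1 the region nearer the gene's end had 4.14, 15.7 and 0.531, and the other had 1.35, 7.42 and 2.70. Kcnh1 and Rbfox3 are large targets, with 292 and 205 regions of any pattern, so 2 regions were 0.685% and 0.976% of theirs, against 25% of the 8 regions of Cbx1.

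Other genes had few assigned regions. The only region assigned to Gpbp1l1 and the only one assigned to Tfap2d, an AP-2 family transcription factor gene, were of this class. The Gpbp1l1 region had a -log10 q of 1.85 and 27.9 in RANKL+Ibet replicates 1 and 2 and 3.56 in Ibet only. The Tfap2d region had 3.52, 7.42 and 3.56 and lay 888638 bp from the nearest region open in all 7 libraries. Coa6, an assembly factor gene of cytochrome oxidase, and Ugt1a5, a glucuronosyltransferase gene, had 1 each of 2 regions.

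The regions were counted on lists of genes that BET inhibitors and RANKL are known to act on. The 25 genes of BET proteins and transcription elongation, Brd2, Brd3 and Hexim1 among them, had 0 of their 446 regions in the class, which allows a share of up to 0.673%. The 25 genes of the Myc network and ribosome biogenesis, Myc included, had 0 of 394, which allows up to 0.761%. Both limits lie above the 0.142% of all regions, so at this number of regions a lack was not detectable. Nfatc1, Fos, Irf8, Acp5 and Ctsk also had 0, of 76, 50, 93, 18 and 14 regions, numbers at which a lack was not detectable either. Osteoclast genes had 2 of 760 regions (2.63 per 1000, against 1.42 per 1000 over all regions), with 1 each near Prdm1, a repressor gene that silences inhibitors of osteoclast formation, and Mitf, a transcription factor gene of osteoclasts and pigment cells.

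The Mitf region, chr6:97792042-97792501, had a -log10 q of 3.52, 22.2 and 3.56 in RANKL+Ibet replicates 1 and 2 and Ibet only, and the Prdm1 region, chr10:44431539-44432079, had 2.37, 6.02 and 0.531. The Mitf peak ranked above the Prdm1 peak in each of the 3 lists.

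NF-kB pathway genes had 4 of 581 regions (6.88 per 1000). The 4 were assigned 1 each to Rela, a DNA-binding subunit, Nfkbiz, an inducible nuclear cofactor, Traf6 and Map3k7. Traf6 and Map3k7 are the adaptor and the kinase that carry the RANK signal. The Map3k7 region, 49875 bp from the gene, had a -log10 q of 2.93, 7.91 and 5.42 in RANKL+Ibet replicates 1 and 2 and Ibet only. The Rela region, chr19:5638476-5639004, lay 112 bp from a region open in all 7 libraries and had 3.52, 2.80 and 1.90. The Nfkbiz region, 53668 bp from the gene, had 1.35, 6.48 and 4.47, and the region inside Traf6 had 0.907, 3.91 and 1.17. AP-1 and early response genes had 1 of 562, 4552 bp from Spry2, a brake on ERK signalling. Inflammatory cytokine and chemokine genes had 1 of 370, 11473 bp from Cxcl1. Interferon response genes had 0 of 274, which allows up to 1.09%.

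Macrophage identity genes had 6 of 849 regions (7.07 per 1000), of which 4 were the Runx1 regions. Of the others, 1 lay inside Tlr4, the receptor gene for bacterial lipopolysaccharide, and 1 lay 45613 bp from Cebpb, a myeloid transcription factor gene. The Tlr4 region, chr4:66842189-66842609, lay 177 bp from a region open in all 7 libraries, with a -log10 q of 2.93, 17.6 and 4.47. Genes of cholesterol and lipid metabolism had 3 of 660 (4.55 per 1000), 1 of them 72506 bp from Abca1, a cholesterol exporter gene. The Abca1 region, chr4:53232494-53232800, had 2.37 and 5.14 in RANKL+Ibet replicates 1 and 2 and 1.90 in Ibet only. Lysosome and autophagy genes had 1 of 337, at Ctsd, a lysosomal protease gene, and histone genes 1 of 59, 5936 bp from the linker histone gene H1f2, with 15.9, 20.8 and 1.90. All of these are counts of 0 to 6 regions, and no list was compared with another.

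Of the markers of other cell types, those of B lymphocytes had 0 of 166 regions, those of T lymphocytes 0 of 289 and those of fibroblasts and osteoblasts 0 of 248. These counts allow shares of up to 1.81%, 1.04% and 1.21%, all above the 0.142% of all regions, so a lack was not detectable. Granulocyte and erythroid markers had 1 of 67, inside Ltf, the lactoferrin gene, with a -log10 q of 3.52, 11.6 and 9.60 in RANKL+Ibet replicates 1 and 2 and Ibet only. The part of other cells in these results was not tested.

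The regions lay away from gene ends, like most regions. Of the 489, 38 (7.77%, Clopper-Pearson 95% interval 5.56% to 10.5%) were within 1 kb of either end of a protein-coding gene, against 8.18% of regions of both RANKL+Ibet libraries only, 27.2% of those in all 7 libraries and 9.01% of all regions. Inside a gene lay 290 (59.3%, 54.8% to 63.7%), against 57.8%, 66.6% and 57.9% in the same order. The genes they lay in had a median length of 74.8 kb, against 66.5, 51.1 and 77.5 kb. Long noncoding RNA genes were overlapped by 45 of the 489 (9.20%), a share that was not counted over all regions. No protein-coding gene within 100 kb was found for 4.70%, against 8.80% of all regions. The shares at gene ends and inside genes were thus near those of all regions, while the share beyond 100 kb was lower. The share beyond 100 kb was also lower in regions of both RANKL+Ibet libraries only (6.03%) and in regions called in all 7 libraries (3.46%).

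**Figure D4:**
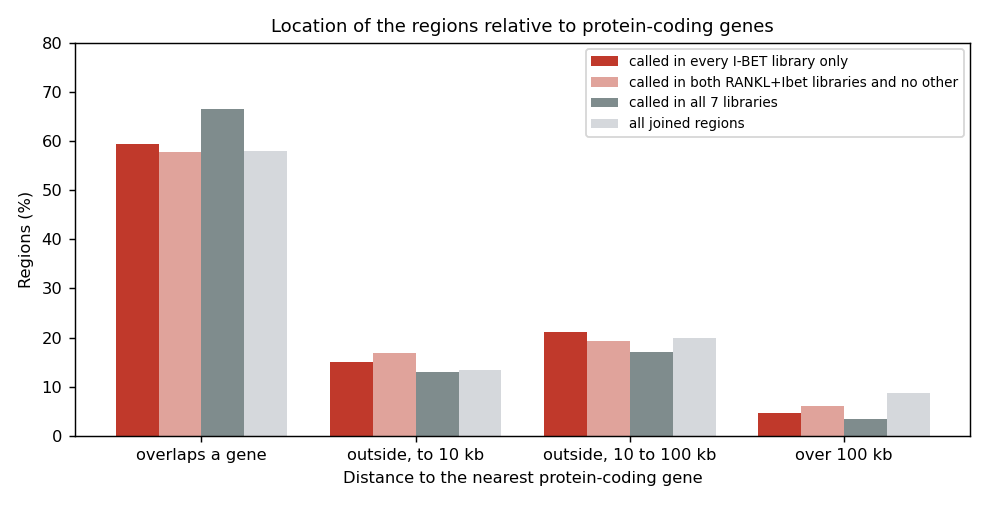
Share of regions (vertical axis, %) by distance to the nearest protein-coding gene (horizontal axis), for the 489 regions (dark red), regions of both RANKL+Ibet libraries only (light red), regions called in all 7 libraries (dark grey) and all joined regions (light grey). The bars of the 489 stand at 59.3% over genes and 4.70% beyond 100 kb, where all regions stand at 8.80%.

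At gene ends the strongest region was at chr13:94977028-94977666, inside Wdr41 and 699 bp from an end of a protein-coding gene. Its -log10 q was 4.14, 7.42 and 5.42 in RANKL+Ibet replicates 1 and 2 and Ibet only. Next came regions within 1 kb of Chrng, a subunit gene of the muscle acetylcholine receptor, with 2.93, 7.42 and 1.90, and of Nuak2, a kinase gene related to AMPK, with 3.52, 6.02 and 1.90. Ccnb1ip1 and Gabbr1, a GABA receptor gene, had 12.7 each in RANKL+Ibet replicate 2 but 2.37 each in replicate 1, and 2.70 and 1.90 in Ibet only. The other 5 of the 10 strongest were assigned to Atic, an enzyme gene of purine synthesis, Amz1, Acox3, a peroxisomal oxidase gene, Arhgap26 and Dnttip2. These 5 had 1.85 to 4.79 and 3.91 to 5.14 in RANKL+Ibet replicates 1 and 2 and 1.90 to 3.56 in Ibet only. Regions are named by their assigned gene, and the end within 1 kb can be that of another protein-coding gene. Apart from Ccnb1ip1 and Gabbr1, the 10 had at most 7.42 in RANKL+Ibet replicate 2.

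By chromosome, 46 regions (9.41%) lay on chromosome 3, which held 7.05% of all regions, 2 (0.409%) on X, which held 0.946%, and 0 on Y. The other 18 chromosomes held 11 to 37 each. Regions of both RANKL+Ibet libraries only were also most frequent on chromosome 3, at 9.91%.

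The summits, which the rule did not use, agreed less well than in regions open throughout. The outermost of the 3 summits were a median of 187 bp apart in the 489 regions (quartiles 86 to 271 bp), against 75 bp (25 to 238 bp) in the 43170 regions called in all 7 libraries. They were within 100 bp of each other in 142 of the 489 (29.0%), against 55.7%. By pair, the median distance was 76 bp between RANKL+Ibet replicates 1 and 2, 98 bp between RANKL+Ibet replicate 1 and Ibet only and 95 bp between RANKL+Ibet replicate 2 and Ibet only. Regions of both RANKL+Ibet libraries only had 78 bp between these libraries. The 3 strongest peaks had bases in common in 371 of the 489, with a median of 119 bp over all 489, and none in the other 118, where they were chained by overlaps in pairs or by further peaks. The 149 regions with a -log10 q of at least 2 in all 3 libraries had a median of 168 bp between the outermost summits. The median length of the regions was 459 bp (quartiles 400 to 558 bp). This was shorter than the 1312 bp of regions called in all 7 libraries. It was longer than the 394 bp of regions of both RANKL+Ibet libraries only and the 308 bp over all regions.

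**Figure D5:**
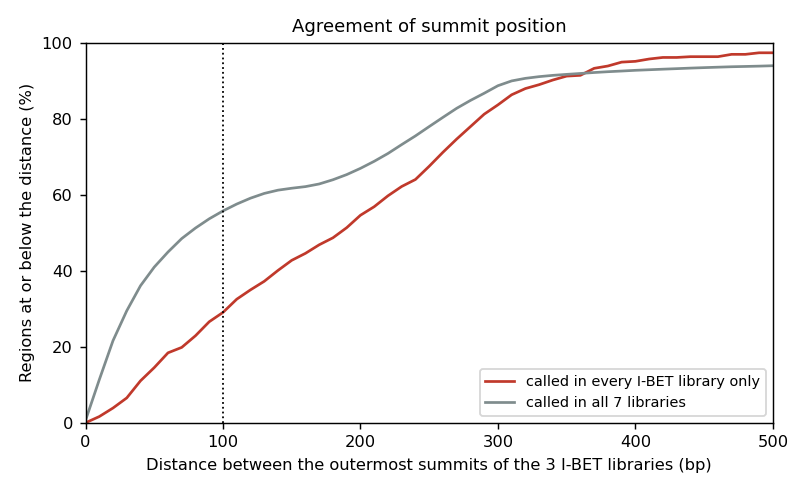
Cumulative share of regions (vertical axis, %) by the distance between the outermost summits of the 3 I-BET libraries (horizontal axis, bp), for the 489 regions (red) and for regions called in all 7 libraries (grey). The dotted line at 100 bp is reached by 29.0% of the 489 and 55.7% of the others.

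The surroundings were called at similar shares with and without I-BET. A region called in all 7 libraries lay within 10 kb of 266 of the 489 (54.4%), against 58.4% of regions of both RANKL+Ibet libraries only and 47.0% of all regions outside that class. The median gap to it was 8.07 kb. Of all other regions a library called, the share within 10 kb of the 489 was 0.903%, 0.919% and 0.881% in RANKL+Ibet replicates 1 and 2 and Ibet only, against 0.867% and 0.900% in RANKL replicates 1 and 2 and 0.886% and 0.921% in Untreated replicates 1 and 2. The ranges with and without I-BET overlapped. A peak in the next 1 kb was found beside 111 to 168 of the 489 in the I-BET libraries, against 117 to 142 in the libraries without I-BET, and the highest number was in the deepest library, RANKL+Ibet replicate 2.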

How the data were processed

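ATAC-seq peaks of 7 libraries were analysed as the authors deposited them, 1 list per library. MACS2, Bowtie2, SAMtools, Picard, cutadapt, bedtools and FastQC were used with build mm10, per the submitters' processing notes. Versions and settings are not given in the sources used here. Each deposited line holds a summit position, a score (the whole part of 10 times the -log10 p, not used here), a fold (the ratio of pileup to background), and a -log10 p-value and -log10 q-value, all the authors' and used only within 1 list. Read depth is not given; it was described by the background pileup.

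The 975394 peaks were joined with Python 3.11.15, numpy 2.4.6 and pandas 2.3.3, and the joining and gene search were checked on simulated peaks. A call needed 1 bp. Genes were the 21887 protein-coding genes of RefSeq GRCm38.p6, by distance to the gene body; 17492 had a promoter window. Intervals (SciPy 1.17.1) cover counting error only. Groups follow the sample titles. Because the rule used all 7 libraries and regions are not replicates, no test was run.

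Genes were named by rule: the 12 with the most regions, up to 4 per list, 10 fixed genes, and the 10 strongest regions in all and at gene ends; any other is marked, and some genes under this rule are not reported here. The regions, the 15 lists and the motifs were chosen with earlier results of these data known. All symbols on the lists were matched by name or synonym, except 2 interferon genes. Alternatives were stricter -log10 q, lists of equal length, more cover, wider joining, closer summits, genes within 50 kb, and leaving out each library.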

Additional observations from a re-analysis of the deposited data

How the results depend on the processing

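The number of regions called in every I-BET library only was 230 and 57 with peaks of a -log10 q of at least 2 and 5, 276 with lists of equal length, 142 with summits within 100 bp, and 646 to 3930 with 1 library left out. It was 369 with 50% of the region covered and 494 with peaks up to 100 bp apart joined. The reverse pattern held 8 and 0 regions at these -log10 q, 2 at 50% cover, 37 with lists of equal length, and 32 to 571 with 1 library left out. The share at gene ends was 3.48% at a -log10 q of 2, 2.90% with equal lists and 6.67% to 9.29% with 1 library left out. The share inside genes was 49.1% at 5, 53.5% with close summits and 55.0% to 61.2% with 1 library left out. The Ibet only share was 10.1% and 4.87% at 2 and 5, 21.8% with equal lists, 12.4% at 50% cover, and 5.46% to 23.1% with 1 library left out. The outermost summits were 101 bp apart at 5, 166.5 bp with equal lists, 144 bp at 50% cover and 201 bp with wider joining. With 1 library without I-BET left out they were 185 to 195 bp apart. With 1 I-BET library left out only 2 summits remained, 77 to 87 bp apart, which is not comparable with a distance over 3. The cause of these changes was not tested beyond that fewer peaks or libraries entered. With genes within 50 kb, every list stayed within 1 region of its count. No paired analysis was possible because no result comes from a test. The lists give no read counts, and Ibet only has no second library.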

Other observations

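A few single regions were picked by hand from the 489 after their values were seen, so they form no group and have no background share. The region inside Ptprc, the CD45 gene, had a -log10 q of 4.79 and 11.6 in RANKL+Ibet replicates 1 and 2 and 2.70 in Ibet only. Plcg2, which encodes a phospholipase of immune receptor signalling, had 6.86, 10.5 and 2.70, and Mertk, a receptor gene for the uptake of dying cells, 2.37, 14.5 and 5.42. The region 17761 bp from the death receptor gene Fas had 5.46, 9.43 and 3.56. These regions have no replicate for Ibet only.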
